A study of Mus musculus with 6 samples.

Results

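The small nucleolar RNA (snoRNA) genes of mouse testis, the related small Cajal body RNA (scaRNA) genes and the genes known as snoRNA hosts were described in a comparison of control and Rnu11 mutant animals. Members were chosen by symbol alone: Snord or Snora followed by a number, Scarna, Snhg followed by a number, and Gas5. This gave 164 of the 55353 genes in the files, with 98 box C/D snoRNA genes (Snord), 40 box H/ACA snoRNA genes (Snora), 9 scaRNA genes and 17 host genes (Snhg and Gas5). The samples were whole testes at postnatal day 14, from 3 control mice and from 3 mutant mice, in which Rnu11 was knocked out conditionally (Rnu11 cKO). Its product U11 is an RNA component of the minor spliceosome, which splices a rare class of introns. The sources used here do not give the Cre line of the deletion, the cells it acts in, or the alleles that the controls carry. Each library came from total RNA depleted of ribosomal RNA, with a strand-marking kit. Each library was taken as 1 animal, and nothing in the sources says that the same number in both groups marks a litter or a day. Every level below is in TPM, an abundance estimate scaled for gene length and for the total of its own library, as the authors deposited it.

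snoRNAs guide chemical modification of other RNAs, chiefly ribosomal RNA, and a few take part in cutting the ribosomal RNA precursor. Box C/D snoRNAs direct methylation of the ribose and carry a C box near the 5′ end and a D box near the 3′ end. Box H/ACA snoRNAs direct conversion of uridine to pseudouridine and end in the bases ACA followed by a short tail. scaRNAs carry the same boxes and guide modification of spliceosomal small nuclear RNAs in Cajal bodies. In mammals most of these RNAs are cut out of introns after the host gene has been spliced, and some hosts, most Snhg genes and Gas5, make spliced RNAs that code for no known protein. Among the hosts here, Snhg11 is listed as protein coding in the annotation used.

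The sequences of 4 members that the results turn on are given first, with their boxes marked. The boxes marked in Scarna6 are a C box and a D box, and boxes inside the RNA were not searched for. Its class here was set by its symbol, and the annotation also lists it as a scaRNA. The 4 sequences were read from GENCODE M21 transcripts on GRCm38, 5′ to 3′, all on the minus strand except Scarna6. Capitals mark the C box TGATGA and the D box CTGA in Snord15b and Scarna6, and the ACA in Snora34 and Snora73b. Snord15b lies at chr7:99479563-99479707 within Rps3, Snora34 at chr15:98519716-98519853 in an intron of Kansl2, Snora73b at chr4:132352322-132352526 in an intron of Snhg3, and Scarna6 at chr1:87784556-87784820 in an intron of Atg16l1.
Snord15b: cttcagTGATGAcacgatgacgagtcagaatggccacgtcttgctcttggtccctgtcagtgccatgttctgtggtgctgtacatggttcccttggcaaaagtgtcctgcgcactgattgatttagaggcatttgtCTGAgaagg
Snora34: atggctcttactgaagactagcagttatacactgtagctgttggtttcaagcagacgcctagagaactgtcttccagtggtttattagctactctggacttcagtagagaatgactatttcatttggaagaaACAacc
Snora73b: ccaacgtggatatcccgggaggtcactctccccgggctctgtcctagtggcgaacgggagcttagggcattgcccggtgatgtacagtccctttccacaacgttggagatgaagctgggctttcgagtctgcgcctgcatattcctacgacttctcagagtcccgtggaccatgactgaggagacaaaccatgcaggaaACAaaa
Scarna6: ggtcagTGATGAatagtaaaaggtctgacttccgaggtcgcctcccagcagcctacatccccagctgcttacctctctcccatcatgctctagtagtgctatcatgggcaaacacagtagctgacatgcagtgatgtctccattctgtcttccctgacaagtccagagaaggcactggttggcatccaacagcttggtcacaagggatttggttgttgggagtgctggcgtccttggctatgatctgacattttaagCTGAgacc

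In the box C/D and box H/ACA classes, the boxes followed the symbols. TGATGA in the first 30 bases together with CTGA in the last 20 bases, read on the RNA strand only, was present in 69 of 98 box C/D members and in 0 of 40 box H/ACA members. ACA placed 3 bases from the 3′ end was present in 34 of 40 box H/ACA members (85%) and in 0 of 98 box C/D members. Of the 9 scaRNA members, 4 held the C and D boxes and 2 held the ACA. Among 4032 other snRNA, miRNA and miscellaneous RNA transcripts of 60 to 420 nt, the C and D boxes occurred together in 0.0496% and the ACA in 2.28%. The members without a match lack only these exact letters in these windows.

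Most of the snoRNA genes were listed at 0 TPM. Of the 98 box C/D members, 5 were above 0 in all 6 libraries, 6 in 1 to 5 libraries, and 87 in none. Of the 40 box H/ACA members, 15 were above 0 in all 6 libraries, 6 in 1 to 5, and 19 in none. Of the 9 scaRNA members, 5 were above 0 in all 6 libraries, 2 in 1 to 5, and 2 in none. All 17 hosts were above 0 in every library. The members above 0 throughout were therefore 42, of which 25 were small RNA genes: Snord8, Snord13, Snord15a, Snord15b and Snord17, the box H/ACA members Snora5c, Snora9, Snora17, Snora20, Snora21, Snora23, Snora33, Snora34, Snora43, Snora57, Snora68, Snora73a, Snora73b, Snora74a and Snora78, and Scarna2, Scarna6, Scarna8, Scarna10 and Scarna13.

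Whether a small RNA gene was above 0 went with its annotated length. None of the 67 members of 93 nt or less was above 0 in any library, as was the case for all but 7 of 1936 other genes of that length. Of the 28 members of 94 to 119 nt, 6 were above 0 in at least 1 library and 2 in all 6, against 8.67% and 0.442% of other genes. Of the 8 members of 120 to 129 nt, 5 were above 0 in at least 1 library and 3 in all 6, against 15.2% and 1.67% of other genes. Of the 28 members of 130 to 139 nt, the counts were 13 and 8, against 16.1% and 3.11% of other genes. Of the 16 members of at least 140 nt, 15 were above 0 in at least 1 library and 12 in all 6. Box C/D members had a median length of 84.5 nt (64 to 238 nt), box H/ACA members 132.5 nt (121 to 205 nt) and scaRNA members 140 nt (70 to 414 nt). The shortest member above 0 in any library was Snord83b, at 94 nt, and the shortest above 0 in all 6 was Snord13, at 104 nt. Snora81, at 178 nt, was the longest member at 0 in every library.

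**Figure D1:**
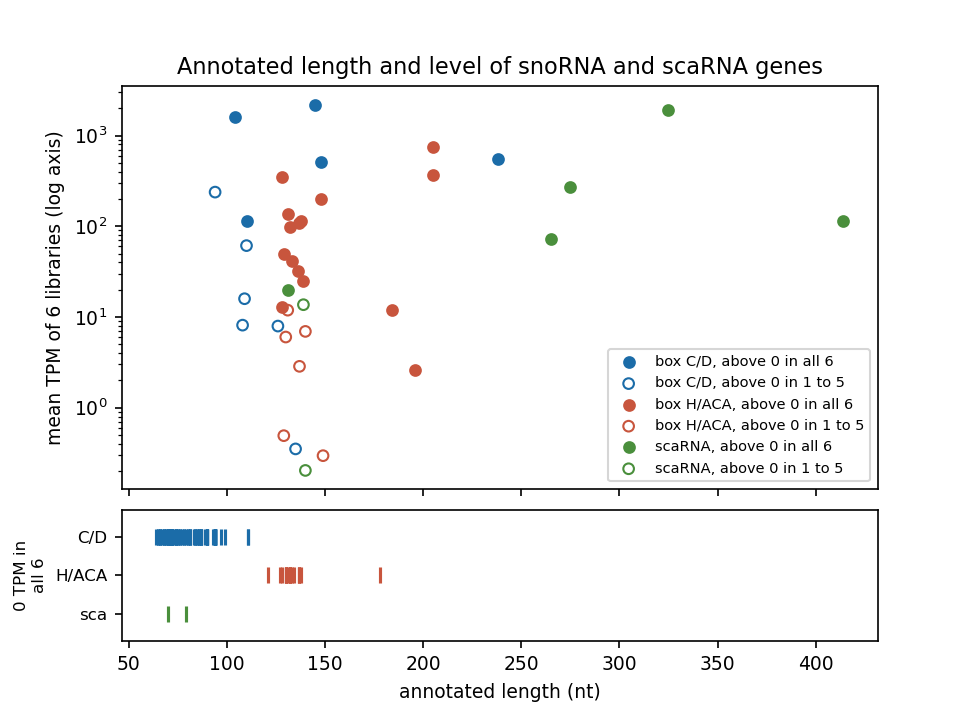
Annotated length in nt (x axis) against the mean TPM of the 6 libraries (y axis, log scale) for snoRNA and scaRNA genes, with filled points for members above 0 in all 6 libraries, open points for members above 0 in 1 to 5, and ticks in the lower panel for the 108 members at 0 in all 6. No member of 93 nt or less is above 0, and most of the 87 box C/D genes at 0 lie in that range.

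Over all small RNA members a listed value of 0 thus went with length, and it was not read as absence of the RNA. Within box H/ACA, length did not separate the members: the median was 132 nt for the 19 at 0 in all libraries and 137 nt for the 15 above 0 throughout. Among those at 0, Snora61 overlaps exons of 5 isoforms of its holding gene, Snora81 of 2 and Snora19 of 0. The part of such overlap in the values of 0 was not tested. Of the 108 small RNA members at 0 in all libraries, 106 lay inside a gene on the same strand, and the holding gene is in the files for 103 of them, with a median level of 32.2 TPM. Of the 25 members above 0 in all libraries, 20 lay inside a gene, and the holding gene is in the files for 19, with a median level of 30.4 TPM. Gas5, the growth arrest gene that carries box C/D snoRNAs in its introns, stood at 28.0 to 44.6 TPM, while its members Snord47, Snord78 and Snord80 were at 0 in every library. Snhg14, the long imprinted host on chromosome 7, holds 17 members. Snhg12 holds Snora16a, Snora44, Snora61 and Snord99, of which only Snora44 was above 0, at 2.95 TPM in control 1. Snord118, which acts in maturation of the large ribosomal subunit RNA, was at 2.11 TPM in mutant 1 and at 0 in the other libraries. Outside the member list, 42 of 1350 other genes annotated as snoRNA or scaRNA were above 0 in all 6 libraries and 1176 were at 0 in all.

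Sequencing depth cannot be read from TPM and no counting interval was computed, but the shortest measured members gave a view of the precision. For the 5 members of 104 to 110 nt above 0 anywhere (Snord8, Snord13, Snord23, Snord43 and Snord89), each of the 24 values above 0 was a whole multiple, within 0.01, of a single step for its library. This step was the smallest of these values in the library or a whole fraction of it, so the smallest value fitted by construction. In mutant 2 it rests on 3 values. The step was 11.8, 9.77 and 16.1 TPM in controls 1 to 3 and 7.38, 39.1 and 12.3 TPM in mutants 1 to 3. Snord13 was 138, 226 and 80 steps in the controls and 268, 26 and 116 steps in the mutants. Snord8 was 10, 22 and 2 steps in the controls and 22, 3 and 3 steps in the mutants. The coarsest step was that of mutant 2, where a 39.1 TPM difference in a gene of this length is 1 step. Whether a step is 1 read is not stated in the sources used here.

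Box C/D members had the highest summed level. Their TPM summed to 4959, 7439 and 5217 in controls 1 to 3 (5872 ± 1364, SD, n = 3) and to 5715, 3953 and 4505 in mutants 1 to 3 (4724 ± 901, SD, n = 3). Box H/ACA members summed to 2383, 3352 and 2226 in the controls and to 2456, 1763 and 1783 in the mutants. The groups overlapped in both classes, and control 2 was the highest library in both. scaRNA members summed to 2307, 2440 and 2471 in the controls and to 2269, 2501 and 2512 in the mutants, which is nearly the same level. The hosts, in contrast, summed to 186, 216 and 204 in the controls (202 ± 15.2, SD, n = 3) and to 231, 269 and 233 in the mutants (245 ± 21.3, SD, n = 3), with every mutant above every control. Few genes made up each sum: Snord15b and Snord13 held 66.0% to 77.1% of the box C/D total, Snora73a and Snora73b 45.3% to 54.3% of the box H/ACA total, and Scarna10 77.3% to 83.4% of the scaRNA total. These libraries are whole tissue, so fewer cells of a type and less RNA per cell cannot be told apart in any of these values.

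The libraries carried the labelled difference in Rnu11, and cell type markers moved with the genotype. Rnu11 stood at 614, 576 and 550 TPM in the controls and at 196, 393 and 203 TPM in the mutants, with no overlap (log2 difference −1.21, limma adjusted p = 0.294). All 5 markers of meiotic germ cells had lower means in mutants, and their summed level was 207 to 272 TPM in controls and 145 to 193 TPM in mutants. Of 5 spermatogonial markers 4 were lower, with sums of 358 to 361 and 264 to 302 TPM. All 5 Sertoli cell markers were higher, with sums of 1059 to 1129 and 1428 to 1890 TPM, and so were all 5 Leydig cell markers, with sums of 104 to 200 and 199 to 319 TPM. Of 3 markers each, macrophage and endothelial markers were higher in 3 and peritubular myoid markers in 2. The sum of 3 spermatid markers stayed at or under 1.03 TPM. None of the 32 markers was at 0 in all libraries, and of the 29 tested with limma 0 were called (0.0278% of all genes were), with 17 under 0.05 without adjustment (16.1% of all genes). The part of the cell makeup in the differences below was not tested. The abundant short RNA genes Rn7s2 and Rn7sk took 26.9% to 30.5% and 12.3% to 15.2% of the TPM of a library, so a change in either rescales all other genes of that library.

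No member passed the test for a difference between the groups. Of the 164 members, 52 had a mean of at least 1 TPM and were tested (10 box C/D, 19 box H/ACA, 6 scaRNA and 17 hosts) with limma on log2(TPM + 1), with p-values adjusted over all 17959 genes tested. At an adjusted p of 0.05, 0 of 52 members were called, where 5 of all genes were (0.0278%). The lowest limma adjusted p of a member was 0.294. Without adjustment, 10 of 52 members were under 0.05, of which 6 were higher and 4 lower in mutants, against 16.1% of all genes (12.1% higher and 3.98% lower). The groups did not overlap in 12 members, with 7 higher and 5 lower in mutants, against 20.3% of all genes (14.5% higher and 5.77% lower). The 6 members higher without adjustment were all hosts, and the 4 lower ones were Snora34, Snora17, Snora23 and Scarna6.

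The classes differed in the direction of their estimates. Of the hosts, 13 of 17 had a log2 difference (mutant minus control) above 0, with a median of 0.24, beside 66.4% and a median of 0.09 over all genes tested. With TPM rescaled to protein-coding genes, the host median was 0.11 and that of all genes −0.03. Of the tested box C/D members, 2 of 10 were above 0, with a median of −0.23 (−0.37 with that scaling), and of the tested box H/ACA members, 3 of 19 were, with a median of −0.40. The 6 tested scaRNA members were split, with 3 on each side and a median of −0.15. Some tested small RNA members were at 0 in part of the libraries and passed the filter on their higher libraries alone. Among the members above 0 in all 6 libraries, 5 of 5 box C/D, 13 of 15 box H/ACA and 2 of 5 scaRNA members had estimates below 0, with medians of −0.23, −0.35 and 0.02. The median within-group SD on the log2 scale was 0.23 for these box C/D members, 0.47 for box H/ACA, 0.18 for scaRNA and 0.17 for hosts, beside 0.16 for all genes tested. Members are not replicates of a condition, and several share a host, so no test was made over the classes.

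Single libraries moved the class medians. Control 2 was the highest of the 6 libraries for 5 of 5 box C/D, 10 of 15 box H/ACA and 2 of 5 scaRNA members above 0 throughout. In all, that was 17 of 25 small RNA members (68%), beside 90 of 936 other tested genes above 0 in all libraries and of the same lengths, 104 to 414 nt (9.62%). The median log2 deviation of a library from the mean of all 6 was 0.47 for box C/D and 0.54 for box H/ACA in control 2, but 0.00 for scaRNA and −0.10 for hosts. In mutant 3 it was −0.57 for box H/ACA and −0.10 for box C/D, and in mutant 2 it was −0.31 and −0.16. Without control 2, the median log2 difference was −0.11 for box C/D, −0.19 for box H/ACA, 0.02 for scaRNA and 0.32 for hosts. The box C/D median was −0.40 without control 3 and −0.39 without mutant 1, and the box H/ACA median −0.63 without mutant 1. Without mutant 3 the box H/ACA median was −0.32, with 13 of 19 members below 0 in place of 16. Of these other genes, 447 of 936 were lower in mutants, with a median of 0.03. Of 41 such genes that are annotated as snoRNA or scaRNA but carry other symbols, 31 were lower, with a median of −0.21, and 14 were highest in control 2.

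**Figure D2:**
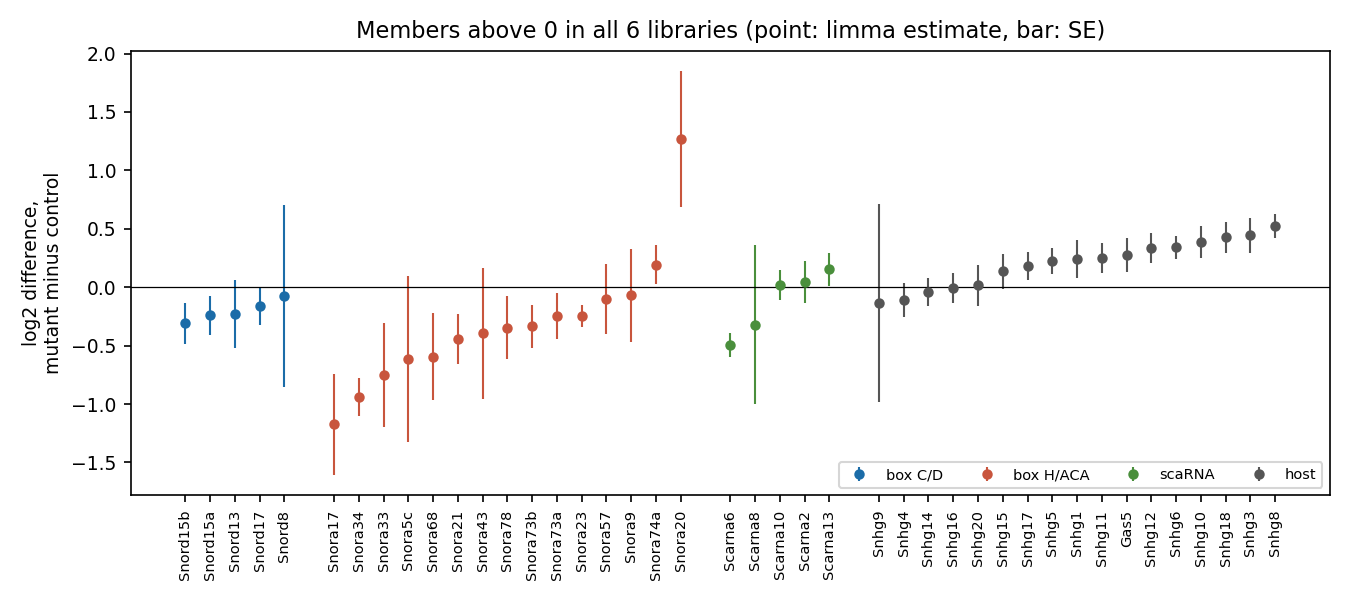
Log2 difference, mutant minus control, with its standard error from limma (y axis) for the 42 members above 0 in all 6 libraries, in order of size within each class. Estimates of the box C/D and box H/ACA members lie mostly below 0 and those of the hosts mostly above 0, and no member passed the adjusted test.

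Among the box C/D members, Snord15b was the most abundant. It guides methylation of the large ribosomal subunit RNA. It stood at 2161, 3007 and 2160 TPM in controls 1 to 3 and at 1977, 1821 and 2044 TPM in mutants 1 to 3. Every mutant was below every control, by a small margin outside control 2 (log2 difference −0.31, SE 0.17, limma adjusted p = 0.378; −0.15 without control 2). Snord15a, its neighbour in Rps3, stood at 451, 683 and 524 TPM in the controls and at 496, 459 and 431 TPM in the mutants. The groups overlapped, and control 2 was again the highest (log2 difference −0.24, SE 0.17, limma adjusted p = 0.468; −0.08 without control 2). Snord17, in an intron of the sorting nexin gene Snx5, stood at 535, 740 and 506 TPM in the controls and at 560, 495 and 516 TPM in the mutants. With control 2 left out, its log2 difference went from −0.16 to 0.01.

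Snord13, which acts in processing of the small ribosomal subunit RNA and is made from a gene of its own rather than from an intron, varied widely between animals. It stood at 1631, 2208 and 1284 TPM in the controls and at 1978, 1016 and 1432 TPM in the mutants. The groups overlapped across nearly their whole range (log2 difference −0.23, SE 0.29, limma adjusted p = 0.693), and the estimate was −0.47 without mutant 1 and 0.015 without mutant 2. Snord8, in an intron of the chromatin remodeller gene Chd8, stood at 118, 215 and 32.1 TPM in the controls and at 162, 117 and 37.0 TPM in the mutants. A low and a high library occurred in each group (log2 difference −0.07, SE 0.78). Leaving out 1 library moved its estimate between −0.83 and 0.55.

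The other 5 tested box C/D members were at 0 in 1 or more libraries. Snord83b was at 0, 440 and 578 TPM in the controls and at 413, 0 and 0 TPM in the mutants. These are all or nothing values, high in some animals of both groups. Snord89 was at 47.3, 117 and 80.3 TPM in the controls and at 111, 0 and 12.3 TPM in the mutants (log2 difference −2.76, SE 1.52, limma adjusted p = 0.375; −1.003 without mutant 2). Snord23 was at 7.38 to 32.1 TPM in 5 libraries and at 0 in mutant 2, the library with the coarsest step. Snord22, which takes part in processing of the small ribosomal subunit RNA and lies in Snhg1, was at 4.13, 0 and 20.4 TPM in the controls and at 8.05, 6.12 and 8.99 TPM in the mutants. Snord43 was above 0 only in control 2 and mutant 2, at 1 step in each.

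**Figure D3:**
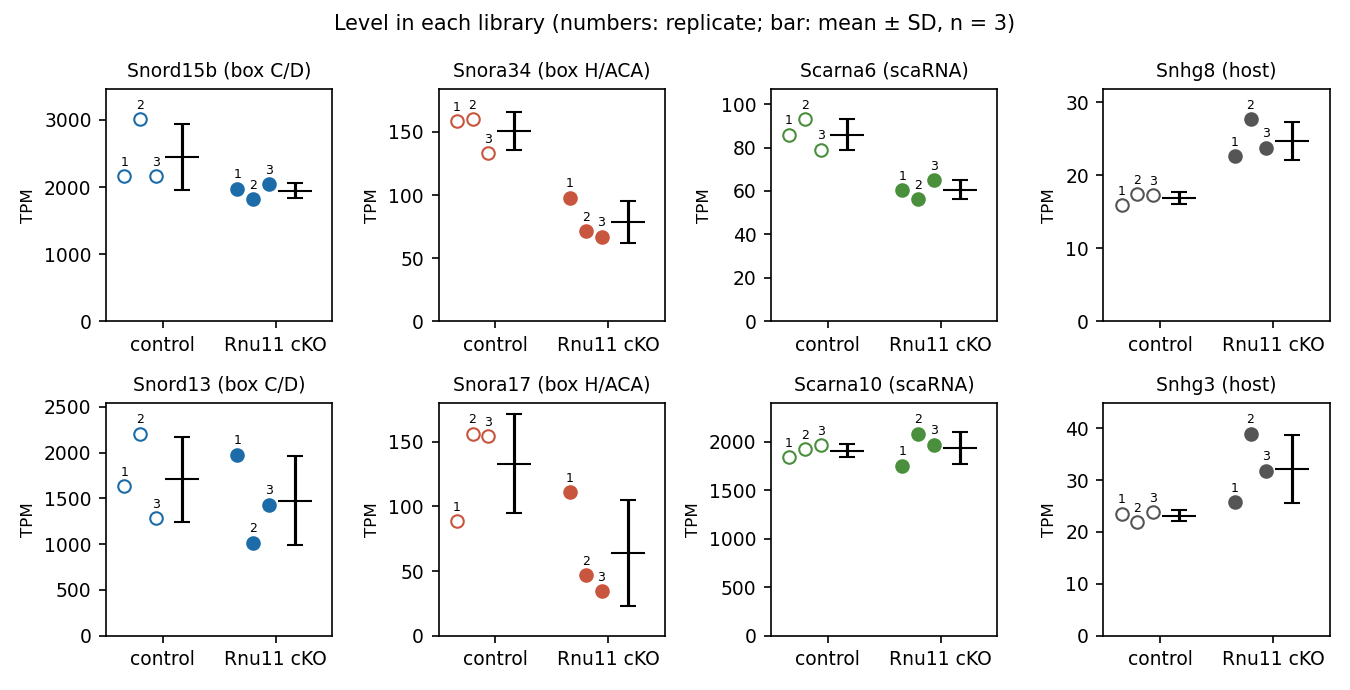
TPM in each library (y axis, from 0) for a pair of members from each class, with open points for the 3 controls and filled points for the 3 mutants, each numbered by replicate, and the mean ± SD beside them. Snord15b, Snora34, Scarna6 and Snhg8 show no overlap between the groups, while Snord13, Snora17 and Scarna10 do overlap, and Snhg3 is higher in each mutant than in any control.

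Snora34 had the smallest p-value of all members. It stood at 158, 160 and 133 TPM in the controls (150.4 ± 15.1, SD, n = 3) and at 97.8, 71.6 and 67.0 TPM in the mutants (78.8 ± 16.6, SD, n = 3). The lowest control was above the highest mutant by more than the SD of either group. Its log2 difference was −0.94 (SE 0.16, limma adjusted p = 0.294), and leaving out each library in turn gave −1.10 to −0.83. Kansl2, the chromatin regulator gene that holds it, stood at 24.7, 33.9 and 26.8 TPM in the controls and at 33.7, 31.3 and 30.4 TPM in the mutants. The host thus overlapped between the groups, with an estimate on the other side of 0 (0.17). In the authors' deposited table, the log2 fold change of Snora34 was −0.89.

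Snora17 had the most negative estimate among box H/ACA members above 0 throughout. It stood at 88.6, 156 and 154 TPM in the controls and at 111, 46.9 and 34.6 TPM in the mutants. Mutant 1 lay above control 1, so the groups overlapped (log2 difference −1.17, SE 0.43, limma adjusted p = 0.295). Snora33, in the ribosomal protein gene Rps12, stood at 65.4, 71.8 and 40.1 TPM in the controls and at 69.8, 22.6 and 24.0 TPM in the mutants. Mutant 1 was again at the control level (log2 difference −0.75, SE 0.44, limma adjusted p = 0.401), and leaving out each library in turn gave −1.27 to −0.47. Snora5c, in Tbrg4, spanned 9.64 to 64.8 TPM in the controls and 14.4 to 38.0 TPM in the mutants (log2 difference −0.61, SE 0.71, limma adjusted p = 0.657), and its estimate was −0.11 without control 2 and −1.43 without control 3. Snora23, in the nuclear import gene Ipo7, stood at 13.1, 14.3 and 12.0 TPM in the controls and at 10.8, 10.7 and 11.3 TPM in the mutants. Its levels were tight within each group and did not overlap (log2 difference −0.24, SE 0.09, limma adjusted p = 0.298).

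The pair Snora73a and Snora73b, which act in cutting the precursor of the small ribosomal subunit RNA, were the most abundant box H/ACA members. Snora73b stood at 747, 1068 and 703 TPM in the controls and at 737, 590 and 640 TPM in the mutants. Snora73a followed the same order of libraries within each group, at 364, 525 and 323 TPM in the controls and at 376, 299 and 329 TPM in the mutants. Both overlapped between the groups, with control 2 highest. Without control 2, the log2 difference went from −0.34 to −0.15 for Snora73b and from −0.25 to −0.04 for Snora73a. Snora78, in Snhg9, stood at 280, 502 and 392 TPM in the controls and at 402, 234 and 284 TPM in the mutants (log2 difference −0.35, SE 0.27, limma adjusted p = 0.502). Its groups overlapped, and the estimate was −0.15 without control 2, again the highest library, and −0.57 without control 1.

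The remaining box H/ACA members included the few with estimates above 0. Snora20, in the chaperonin gene Tcp1, stood at 3.94, 7.81 and 6.42 TPM in the controls and at 14.8, 39.1 and 6.17 TPM in the mutants. Mutant 3 was at the control level. The value in mutant 2 equals the 1 step found for members of 104 to 110 nt in that library. Snora20 is 128 nt long, however, and no step was computed at that length. Smaller values occur in mutant 2 at such lengths, as for Scarna8 (131 nt) at 9.77 TPM. Without mutant 2 the log2 difference of Snora20 went from 1.27 to 0.63 (SE of the first 0.58, limma adjusted p = 0.324). Snora74a, at 1.80 to 3.47 TPM, had a log2 difference of 0.19 (SE 0.17, limma adjusted p = 0.551; 0.07 without control 1 and 0.07 without mutant 2). Snora57 and Snora9 lay close to 0, at −0.10 (SE 0.30) and −0.07 (SE 0.40), and took either sign as single libraries were left out. Snora69 was at 17.7, 21.2 and 12.8 TPM in the controls and at 9.84, 0 and 9.87 TPM in the mutants. Its groups did not overlap, and the value of 0 in mutant 2 set the size of its estimate, which was −1.87 with that library and −0.72 without it.

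The abundant scaRNAs had much the same level in both groups. Scarna10, a guide for the U5 spliceosomal RNA that carries both kinds of box, stood at 1841, 1925 and 1965 TPM in the controls and at 1753, 2085 and 1969 TPM in the mutants. The groups overlapped fully (log2 difference 0.02, SE 0.13, limma adjusted p = 0.959). Scarna13, in Snhg10, stood at 221, 258 and 294 TPM in the controls and at 292, 252 and 314 TPM in the mutants (log2 difference 0.15, SE 0.14, limma adjusted p = 0.571; 0.05 without control 1). Scarna2, a guide for the U2 spliceosomal RNA that lies in no annotated gene of its strand, stood at 132, 106 and 99.8 TPM in the controls and at 108, 97.5 and 147 TPM in the mutants. Its highest and its lowest library were both mutants (log2 difference 0.05, SE 0.18, limma adjusted p = 0.907). The estimates of Scarna10 and Scarna2 turned below 0 under median-ratio scaling and under scaling to protein-coding genes, which left 1 of 6 tested scaRNA members above 0 in place of 3. Scarna8, in the spindle gene Haus6, spanned 6.42 to 42.3 TPM in the controls and 9.77 to 29.5 TPM in the mutants (log2 difference −0.32, and 0.27 without control 2).

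Scarna6 was the exception within its class. It stood at 85.8, 93.0 and 79.0 TPM in the controls (85.9 ± 6.98, SD, n = 3) and at 60.5, 56.3 and 65.0 TPM in the mutants (60.6 ± 4.37, SD, n = 3). All mutants were below all controls. Its log2 difference was −0.50 (SE 0.10, limma adjusted p = 0.294), and it kept this sign in every alternative run. Atg16l1, the autophagy gene that holds it, had a log2 difference of 0.12 (SE 0.11, limma adjusted p = 0.560), with overlapping groups. In the authors' deposited table, the log2 fold change of Scarna6 was −0.48.

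Among the hosts, Snhg8 had the largest estimate. It stood at 15.9, 17.4 and 17.3 TPM in the controls (16.8 ± 0.844, SD, n = 3) and at 22.6, 27.7 and 23.8 TPM in the mutants (24.7 ± 2.63, SD, n = 3). Every mutant was above every control (log2 difference 0.52, SE 0.10, limma adjusted p = 0.294). Leaving out each library in turn gave log2 differences of 0.44 to 0.58 for Snhg8. Snhg3, host of Snora73a and Snora73b, stood at 23.5, 21.9 and 23.9 TPM in the controls and at 25.8, 39.0 and 31.8 TPM in the mutants. Its mutants were spread more widely than its controls, and all were higher (log2 difference 0.44, SE 0.15, limma adjusted p = 0.294).

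A further 5 hosts had no overlap between the groups, all with mutants higher. Snhg6 stood at 21.7, 21.3 and 22.5 TPM in the controls and at 26.3, 26.6 and 31.3 TPM in the mutants (log2 difference 0.34, SE 0.10). Snhg18 stood at 6.12, 8.13 and 8.51 TPM in the controls and at 10.7, 11.1 and 9.56 TPM in the mutants (log2 difference 0.43, SE 0.13). Snhg10, host of Scarna13, stood at 3.70, 4.61 and 4.72 TPM in the controls and at 7.08, 5.34 and 5.57 TPM in the mutants (log2 difference 0.39, SE 0.14). The remaining 2 were Snhg12, with a log2 difference of 0.34 (SE 0.13), and Snhg5, with 0.22 (SE 0.11; 0.12 without control 1). The limma adjusted p of these 5 hosts was 0.294 to 0.345.

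Gas5 was the most abundant host, at 31.5, 35.2 and 28.0 TPM in the controls and at 32.2, 44.6 and 38.8 TPM in the mutants. Mutant 1 fell among the controls, so the groups overlapped (log2 difference 0.28, SE 0.14, limma adjusted p = 0.355; 0.17 without mutant 2). Snhg1, host of Snord22, stood at 14.2, 18.4 and 14.1 TPM in the controls and at 15.8, 22.6 and 17.5 TPM in the mutants (log2 difference 0.24, SE 0.16, limma adjusted p = 0.453; 0.10 without mutant 2). Snhg11, Snhg15, Snhg17 and Snhg20 had log2 differences of 0.25, 0.13, 0.18 and 0.02 with overlapping groups. Without control 1, those of Snhg15 and Snhg17 were −0.0053 and 0.07. Snhg20 turned below 0 under median-ratio scaling and under scaling to protein-coding genes. Snhg4, Snhg14 and Snhg16 had log2 differences of −0.11, −0.04 and −0.01, within their spread. Snhg9 was the most variable host, at 0.66, 13.5 and 8.03 TPM in the controls and at 10.8, 3.55 and 2.06 TPM in the mutants. Its gene overlaps Snora78 on the same strand and Rps2 on the other.

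Because the small RNAs are released from introns, small RNA members above 0 in all libraries were set beside the genes that hold them. There were 18 such pairs with 16 different holding genes, since Snord15a and Snord15b share Rps3 and Snora73a and Snora73b share Snhg3. The log2 difference of the small RNA was below that of the holding gene in 16 of 18 pairs, and the medians were −0.28 and 0.13. The small RNA was below 0 in 15 of 18 pairs and the holding gene above 0 in 14. Over all genes tested, 66.4% were above 0, with a median of 0.09. In 13 pairs the small RNA was below 0 and the holding gene above 0. With TPM rescaled by median ratios that count was 12, and with TPM rescaled to protein-coding genes it was 9, while the small RNA was below its holding gene in 16 pairs under both. The exceptions were Snora20 in Tcp1 (1.27 and −0.37) and Scarna10 in Ncapd2 (0.02 and −0.11). Leaving out 1 library gave 13 to 16 pairs, with 14 without control 2, 14 without control 1 and 13 without mutant 3.

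Several of the pairs lay in ribosomal protein genes, a common home of snoRNAs. Snora21 stood at 144, 131 and 96.3 TPM in the controls and at 116, 71.6 and 86.4 TPM in the mutants, while Rpl23 stood at 116, 117 and 131 TPM in the controls and at 132, 158 and 137 TPM in the mutants. The snoRNA overlapped between the groups and Rpl23 did not, by a narrow margin (log2 differences −0.44, SE 0.22, and 0.22, SE 0.11). The estimate of Snora21 was −0.28 without mutant 2. Snora33 in Rps12 had −0.75 beside 0.24, and Snord15b in Rps3 −0.31 beside 0.18. For Snora73b and Snhg3 the values were −0.34 and 0.44. Each of Snord15b, Snora5c, Snora9, Snora33, Snora73a and Scarna10 also overlaps an exon of 1 annotated isoform of the gene that holds it, so reads from that isoform and from the small RNA cannot be told apart. None of the 16 holding genes passed the test (lowest limma adjusted p = 0.294).

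**Figure D4:**
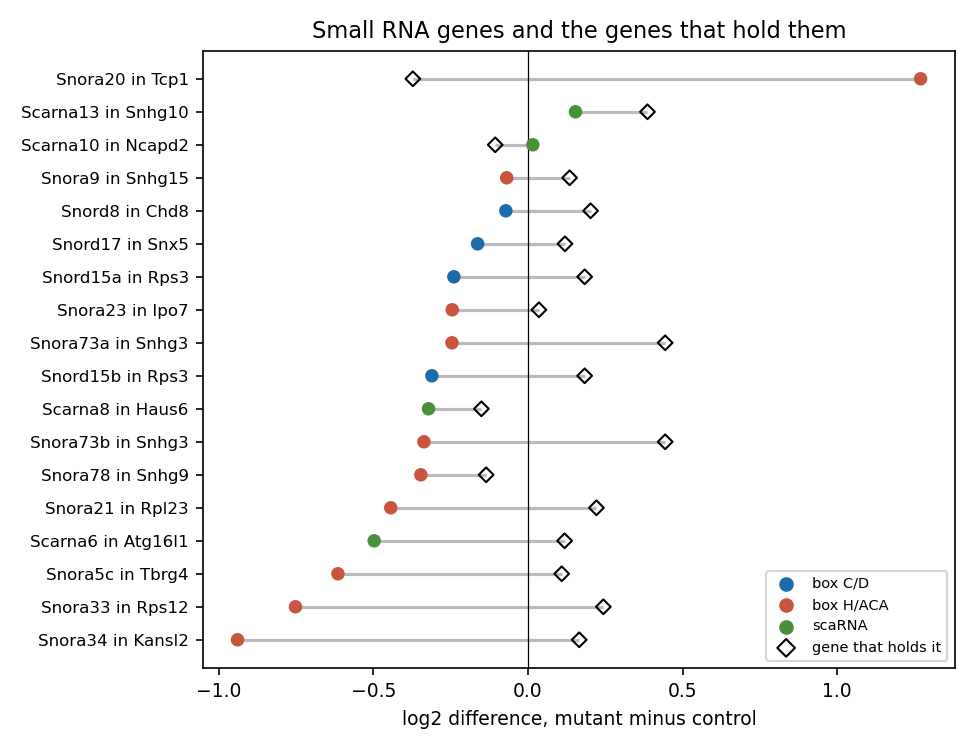
Log2 difference, mutant minus control (x axis), for 18 small RNA members above 0 in all 6 libraries (coloured by class) and for the gene that holds each of them (open diamond), in order of the small RNA's value. The small RNA lies to the left of its holding gene in 16 of 18 pairs, the exceptions being Snora20 in Tcp1 and Scarna10 in Ncapd2.

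The isoforms of the hosts were examined because some keep the snoRNA within an exon. Of 116 isoforms listed for the hosts, 47 had a mean of at least 1 TPM, and 40 of these had a log2 difference above 0 (63% of all isoforms tested did). At a limma adjusted p of 0.05, 0 of 47 were called, beside 6 of 44197 isoforms tested (0.0136%). Without adjustment 5 were under 0.05, all higher in mutants (8.06% of all isoforms were). The groups did not overlap in 6, again all higher in mutants (11.6% of all isoforms). None of the 5 has a small RNA gene in an exon. These 5 were isoforms of Snhg3, Snhg8, Snhg10, Snhg12 and Snhg18. The main isoform of Snhg3 had means of 18.1 TPM in controls and 26.4 TPM in mutants (log2 difference 0.51), and that of Snhg8 had 11.6 and 17.6 TPM (log2 difference 0.56). Isoforms with a small RNA gene inside an exon had a median log2 difference of 0.11 (17 isoforms), and those without had 0.24 (30 isoforms).

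In 7 hosts, the isoforms with a small RNA gene in an exon together had a mean of at least 1 TPM. The share of the host's TPM held by these isoforms was computed in each library for these 7 alone, and its mean was lower in mutants in 5. In Snhg17 this share was 53.3%, 51.0% and 52.9% in the controls (52.4% ± 1.22, SD, n = 3) and 48.1%, 48.8% and 44.9% in the mutants (47.3% ± 2.10, SD, n = 3). In Snhg15 it was 26.6%, 24.0% and 23.3% in the controls and 22.0%, 19.0% and 21.6% in the mutants. In Snhg12 it was 79.4% ± 8.60 in controls and 66.5% ± 7.71 in mutants, and in Snhg8 17.8% ± 1.68 and 15.1% ± 3.08 (SD, n = 3), with overlapping groups in both. The groups did not overlap in Snhg17 or Snhg15, and the two-sided exact permutation p was 0.1 for each, the smallest that 3 against 3 can give (0.35 after Benjamini-Hochberg adjustment over the 7 hosts). Such shares were not computed for other genes, so 2 of 7 hosts without overlap has no background here. In Gas5 the share was 66.8% ± 4.52 in controls and 67.9% ± 3.85 in mutants (SD, n = 3), and in Snhg1 it was 34.8% ± 1.89 and 33.7% ± 6.40 (SD, n = 3). In both the groups overlapped.

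Host RNAs of this family are known for a run of pyrimidines at the start of transcription, a feature shared with ribosomal protein mRNAs. The start windows of 3 hosts that hold such a run are shown for this reason. They were read from RefSeq on GRCm38.p6, from 15 bases before to 15 bases from the start given by a promoter entry for the gene. Such a start can differ from the gene start in GENCODE M21, as it does for Gas5. Capitals mark a run of at least 6 pyrimidines that begins with C within 10 bases of the start. The window of Snhg8 lies at chr3:123508322-123508351 on the minus strand and that of Snhg12 at chr4:132308663-132308692 on the plus strand. That of the second promoter entry of Gas5 lies at chr1:161035151-161035180 on the plus strand.
Snhg8: gcaccgttcagaagtCTCTTTggctgcgat
Snhg12: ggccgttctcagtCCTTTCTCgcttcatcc
Gas5: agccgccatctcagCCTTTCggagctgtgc
Of the 15 hosts with a promoter entry, 7 had such a run on the RNA strand (46.7%), beside 5910 of 27025 genes with a promoter entry (21.9%). Snhg3 and Snhg5 are not among these 7. The run of Snhg8 began at the start itself, that of Snhg9 9 bases before it and that of Snhg16 8 bases after it. The 3 windows shown are those with the run closest to the start.

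The proteins that bind and build these RNAs were listed as related genes, chosen by role. All 23 were tested with limma, 16 had a log2 difference above 0 and 7 below, and the median was 0.05. Of the 23, 0 were called (0.0278% of all genes were), and Fbl alone was under 0.05 without adjustment (16.1% of all genes were). All 4 box C/D core proteins were above 0. Fibrillarin (Fbl), the methyltransferase of box C/D particles, stood at 38.4, 39.6 and 32.1 TPM in the controls and at 44.0, 43.6 and 43.9 TPM in the mutants. It was the only one of the 23 without overlap, beside 20.3% of all genes (log2 difference 0.25). Nop56 and Nop58, its scaffold partners, had 0.01 and 0.04, and the kink-turn binder Snu13 had 0.13. Among box H/ACA core proteins, the pseudouridine synthase Dkc1 had 0.06, Nhp2 0.10, Nop10 0.23 and Gar1 −0.09. Of 12 assembly and Cajal body factors 7 were above 0, from −0.18 for Naf1 to 0.14 for Nolc1, and of 3 end-processing and capping enzymes 2 were, with Parn at 0.12, Tgs1 at 0.01 and Tent4b at −0.03.

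The authors' deposited table of log2 fold changes gives the same classes side by side. In the authors' deposited table, the column that its header calls confident was other than 0 for 6 of 98 box C/D members (1 above 0, 5 below), 18 of 40 box H/ACA members (3 above, 15 below), 4 of 9 scaRNA members (1 above, 3 below) and 16 of 17 hosts (12 above, 4 below). Over all 55353 genes in the authors' deposited table it was other than 0 for 27607, with 16673 above and 10934 below. The 87 box C/D, 19 box H/ACA and 2 scaRNA members at 0 TPM in every library are 0 in this column too. The class counts thus follow detection in part. They include −100 for Snord83b and Snora7a and 100 for Snora2b, all members at 0 TPM in some libraries. In this column the authors' deposited table gives 0.53 for Snhg8, 1.58 for Snora20, −0.14 for Snord15b and −0.12 for Snora73b. In a column whose header says single run, the authors' deposited table gives 0.55, 1.72, −0.33 and −0.36 for the same genes.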

How the data were processed

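Stranded libraries of total RNA depleted of ribosomal RNA were made from 6 whole testes (3 control, 3 Rnu11 cKO) at postnatal day 14, per the labels' protocols. The submitters' processing notes name the aligner HISAT2 and the build GRCm38. Not given in the sources used here are the TPM software and its annotation. For each library, the authors deposited TPM by gene and by isoform and no counts, which leaves the depth unknown. The authors deposited a further table of log2 fold changes per gene, which was used for description only. A deposited value of 0 is described as listed at 0. Because TPM is relative within a library, abundant RNAs rescale all other genes.

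Groups and replicate numbers were taken from the labels. The design text speaks of animals, and p-values measure the spread between these 6 samples. All genes that averaged 1 TPM or more were fitted on log2(TPM + 1) with limma 3.58.1 in R 4.3.3 (functions lmFit and eBayes, trend on). Tests were two-sided, adjusted by Benjamini-Hochberg over every gene tested, and called at 0.05. This scale understates changes where TPM is near 1. Isoforms were fitted in the same way. The fit was also run on simulated data with planted differences larger than most member estimates. That run does not give the power to detect differences of the size seen in most members. Symbols were matched to GENCODE M21 (162 of 164 members, 3 of them with 2 identifiers, and 53461 of 55353 genes) and isoforms likewise (141524 of 142647). A member was paired with a gene that contains it on the same strand, and 1 pair and 1 sequence are not reported here. Snord43 is annotated there as a miRNA and was kept with box C/D by its symbol.

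Members, classes, marker lists and related genes were chosen with earlier results of these data known. Genes were named by a rule: every host; in each small RNA class the 3 most abundant; among members above 0 in all libraries the 4 highest and 4 lowest log2 differences and the 3 smallest p-values; and the related proteins, with the assembly factors given by their range. Members at 0 in some libraries, Snora21, Snora69, and the length limits were singled out after their values were seen. Alternatives were a pseudocount of 0.1, no filter or a filter of 5 TPM, 3 other scalings, no trend, a replicate block, and each library left out in turn. Tables and figures were made with pandas 2.3.3 and matplotlib 3.10.9 under Python 3.11.15.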

Additional observations from a re-analysis of the deposited data

How the results depend on the processing

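No member gene and no host isoform was called in the main limma fit or under any alternative run. Without adjustment, 7 to 14 member genes and 2 to 8 host isoforms were under 0.05, while the share of all genes tested moved between 7.22% and 23.9% and that of all isoforms between 6.26% and 16.5%. Same-numbered libraries did not deviate together (correlations across genes of −0.07, 0.04 and 0.08), so the numbers were not taken as pairs, and a replicate block in limma gave 0 called members and 12 under 0.05 without adjustment. Median-ratio scaling moved the median log2 difference of all genes from 0.09 to 0.00, and scaling to protein-coding genes moved it to −0.03. The median of the hosts was then 0.14 and 0.11, that of box C/D members −0.34 and −0.37, that of box H/ACA members −0.50 and −0.53, and that of the scaRNAs −0.26 and −0.29, with 5 of 6 scaRNAs below 0 where 3 were in the main fit. The scaRNA median was −0.32 with no filter and, in an alternative chosen after seeing the data, 0.016 over the members above 0 in all 6 libraries. Leaving out each library in turn gave scaRNA medians from −0.29 to 0.036. Box C/D medians ranged from −0.40 to −0.11, box H/ACA medians from −0.63 to −0.19 and host medians from 0.17 to 0.32 in the same way, so these classes kept their sign. The pair counts under each alternative were also computed after seeing the data. Of the 52 tested members, 34 kept the sign of their estimate under every alternative and 18 did not (5 box C/D, 3 box H/ACA, 4 scaRNA and 6 hosts). The cause of these shifts was not tested.

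TPM records no depth, and most box C/D genes are shorter than any member above 0, so differences in them were not detectable here. For members near 104 nt, a step of 39.1 TPM in mutant 2 limits what can be seen in that library.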
